A study of Mus musculus with 5 samples.

Results

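Crem, Nr4a3 and Ier5 are 3 genes whose transcripts respond to cAMP or to neuronal activity, and they are described here in the striatum of mice with an altered adenylyl cyclase. They are 3 genes among 53700 features in the count tables. The libraries came from homogenates of the striatum of adult mice of the Adcy5R419W line (Adcy5 KI, below KI, n = 2 libraries, replicates 1 and 3) and of their wild-type littermates (WT, n = 3 libraries, replicates 1 to 3). KI is a knock-in of the R419W allele of Adcy5, and the labels give neither the number of mutant alleles nor the ages beyond adult. No treatment is listed for either group. No label ties a library to a separate animal, so any spread between libraries may be partly technical. The comparison asks how striatal transcripts differ when the adenylyl cyclase carries this change.

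Adcy5 encodes an adenylyl cyclase that is abundant in striatal projection neurons and makes cAMP in response to dopamine and adenosine receptors. Cyclic AMP activates protein kinase A, which phosphorylates transcription factors of the CREB family, and these bind the cAMP response element (CRE) in the promoters of many immediate-early genes. Crem encodes such a CRE-binding factor. The same gene also gives rise, from an internal promoter, to the repressor ICER, which is itself induced by cAMP and feeds back on CREB targets. Nr4a3 encodes an orphan nuclear receptor of the NR4A family, a group of immediate-early genes induced by cAMP and by depolarisation. Ier5 encodes a small immediate-early protein that binds protein phosphatase 2A and the heat shock factor HSF1.

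In both KI libraries the Crem transcript was above the WT range, 1.96-fold higher on average, and the feature read for Ier5 was below it, 1.8-fold lower on average. Of the 8222 bases of that feature only 410 lie in Ier5, so its level may not be that of the gene. Nr4a3 was high in 1 KI library and close to WT in the other. Not all genes of the lists described below could be tested. Both KI libraries lay on 1 side of all WT libraries in 22.4% of all tested features. They did so in 2 of 12 tested immediate-early genes, downward, and in 2 of 12 tested effector genes induced by activity, upward. Of 15 tested kinases and phosphatases upstream of CREB, 3 were separated upward and 2 downward. The count was 0 of 6 tested CREB family genes and 0 of 9 tested relatives and partners of Nr4a3 and Ier5.

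The promoters of Nr4a3 and of Ier5 differ in their CRE content, and they are shown because CREB acts through that element. No RefSeq window was available for Crem, so its promoters were not searched. RefSeq windows (GRCm38.p6) from 250 bases before to 50 bases after the transcription start were searched on both strands for the CRE core TGACG, for the full palindrome TGACGTCA (which contains the core on each strand), for CCAAT and TATAA boxes and for the serum response element. The Nr4a3 stretch lies at chr4:48045055-48045167 on the plus strand, with 15 of its 113 bases in a GENCODE M21 exon. That of Nr4a1, the relative of Nr4a3 that was also measured, lies at chr15:101266608-101266815 on the plus strand. The Ier5 stretch is the 250 bases before its start, chr1:155099637-155099886 on the minus strand. Capitals mark TGACG or its reverse complement CGTCA in the Nr4a lines, and ATTGG (the reverse complement of CCAAT) and TATAA in the Ier5 line.
Nr4a3: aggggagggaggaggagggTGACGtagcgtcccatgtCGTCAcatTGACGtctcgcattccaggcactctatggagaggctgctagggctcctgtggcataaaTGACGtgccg
Nr4a1: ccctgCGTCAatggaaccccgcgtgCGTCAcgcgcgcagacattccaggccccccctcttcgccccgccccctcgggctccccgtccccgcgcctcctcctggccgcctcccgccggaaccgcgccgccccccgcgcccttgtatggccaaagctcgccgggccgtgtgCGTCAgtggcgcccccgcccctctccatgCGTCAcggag
Ier5: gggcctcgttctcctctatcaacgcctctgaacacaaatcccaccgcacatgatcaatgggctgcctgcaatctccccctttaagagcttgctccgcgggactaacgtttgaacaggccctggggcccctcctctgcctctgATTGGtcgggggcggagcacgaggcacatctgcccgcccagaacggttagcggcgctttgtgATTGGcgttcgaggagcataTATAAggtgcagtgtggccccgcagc

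The Nr4a3 window holds 4 matches to the CRE core, at distances of -231, -213, -205 and -147 bases from the start, and none to the full palindrome. Nr4a1 also holds 4 core matches and no full palindrome. Ier5 holds 0 core matches in this window, and holds 2 CCAAT matches and 1 TATAA match. Of 32851 RefSeq windows, 20.8% hold at least 1 core match and 0.231% hold 4 or more. A CCAAT match is found in 37.4%, a TATAA match in 24.9%, the full palindrome in 1.79% and a serum response element in 1.63%. A match is a description of the letters and not evidence of binding.

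**Figure D1:**
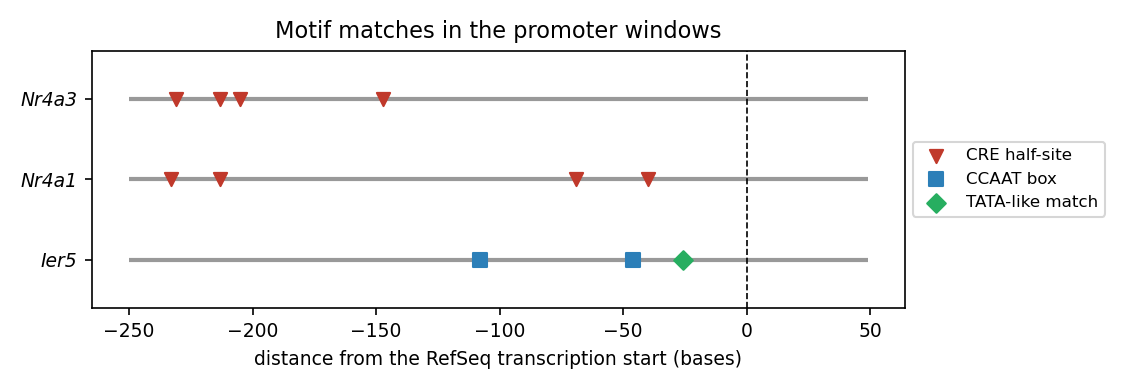
Motif matches in the RefSeq promoter windows of Nr4a3, Nr4a1 and Ier5, by distance from the transcription start in bases (dashed line at 0). Triangles are CRE core matches, squares CCAAT matches and the diamond a TATAA match; Nr4a3 and Nr4a1 each carry 4 triangles and Ier5 carries none.

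The files count reads on features of GRCm39, whereas the reads lie at GRCm38 positions, so each gene was taken as the feature over its GRCm38 exons. Crem (ENSMUSG00000063889) lies on chromosome 18 from 3266048 to 3337748 on the minus strand, and its feature covers all 5895 exon bases. Nr4a3 (ENSMUSG00000028341) lies on chromosome 4 from 48045153 to 48086447 on the plus strand, and its feature covers all 5987 exon bases and no other gene. Both genes therefore keep their own label and are read over their coding sequence and UTRs in full. Ier5 (ENSMUSG00000056708) lies on chromosome 1 from 155096361 to 155099636 on the minus strand and is read by the feature labelled BC034090. That feature covers 410 of the 3276 exon bases of Ier5 (12.5%), of which 157 are coding and 253 untranslated. Another 7812 bases of it lie over no GENCODE M21 exon or other gene, and reads falling there could not be told apart from those of Ier5. Many genes named below are likewise read over part of their exons, by features with other labels. The share of exon bases was 27.1% for Fos, 15.4% for Srf, 8.79% for Sik1, 6.68% for Rgs9 and 1.97% for Homer1. Their levels may include reads from outside the gene. Penk, Tac1 and Klf4 are read in full.

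Libraries held 6595105 to 7910584 counts, and every pair differed by more than counting noise, with a chi-square of 6.44 to 20.6 for each degree of freedom. Adcy5 could not be checked, since 0 features cover its exons. Of 16 markers of striatal spiny projection neurons 7 had a feature, and their summed level was 8638, 11270 and 10046 CPM (the count as a share of the TMM-scaled library size) in the wild-type libraries, against 7290 and 8069 CPM in those of KI. Most of that was Penk, the enkephalin gene, at 6722 to 8271 CPM in WT and at 5296 and 5903 CPM in KI. Of the 6 markers tested, 2 had a log2 fold change above 0 and 4 below, with a median of -0.35 and 0 calls in the edgeR quasi-likelihood test. Tac1, the substance P precursor gene, had a log2 fold change of 0.14 (SE 0.12), and Rgs9, a regulator of G protein signalling, one of -1.03 (SE 0.19; edgeR adjusted p = 0.06338). The part of these markers in the levels of the 3 genes was not tested. Markers of other tissue differed between libraries. Of the cortical glutamate neuron list, 4 of 11 genes had a feature, and their summed level was 104, 338 and 257 CPM in WT replicates 1 to 3, 121 in KI replicate 1 and 37.6 in KI replicate 3. Of the choroid plexus list, 2 of 8 genes had a feature, with a summed level of 42.4 to 61.8 CPM in WT, 28 in KI replicate 1 and 2096 in KI replicate 3. Nearly all of that was Ttr, the transthyretin gene, at 2093 CPM in KI replicate 3, while Kl was at 0 in WT replicates 2 and 3 and in KI replicate 1. The features over Penk, Ttr and Slc17a7 also cover exons of A830012C17Rik, Gm16090 and Mir7055, in that order, and those over Fosb, Npas4, Homer1 and Crebl2 below cover exons of other genes that are not protein coding. In bulk tissue, fewer cells of a type and less RNA per cell cannot be told apart.

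The 3 genes were chosen on the difference between KI and WT itself, so their levels and fold changes are given as a description with no test. All 3 passed the filter on low counts. In both KI libraries Crem and Nr4a3 stood above, and Ier5 below, every WT library. Over all 13665 tested features, both KI libraries stood above all WT libraries in 11.3% and below them in 11.1%, and nothing is read from the members' count because the choice fixed it. None of the 3 genes is among the 14 features (0.102%) with an adjusted p under 0.05 in the edgeR quasi-likelihood test. That number of features moved between 2 and 183 with the processing, and nothing is read from it about the 3 genes.

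Crem stood at 57.1, 50.9 and 69.3 CPM in WT replicates 1, 2 and 3, and at 98.5 and 133 CPM in KI replicates 1 and 3. The lower KI library was 1.42 times the highest WT library, so the groups did not overlap. Group means were 116 ± 24.0 CPM in KI (SD, n = 2) and 59.1 ± 9.37 CPM in WT (SD, n = 3), and the log2 fold change was 0.97 (SE 0.18), or 1.96-fold. Each value rests on 381 to 1070 counts, and the 95% exact Poisson intervals, which cover counting error only, ran from 91.5 to 106 CPM in KI replicate 1 and from 63.1 to 76 CPM in WT replicate 3. Without KI replicate 3 the log2 fold change of Crem was 0.74 (SE 0.22). The part of the marker differences between libraries in the Crem level was not tested.

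Part of the Crem feature is shared with a noncoding neighbour. It overlaps Gm6225 over 472 exon bases, and a read there is counted for both, since the counting assigned a read to each feature it overlapped. In WT the Gm6225 feature had 133, 117 and 85 counts, against 74 and 91 in the KI libraries, and its own log2 fold change was -0.53 (SE 0.31), opposite in sign to that of Crem. Taking all of its counts off those of Crem left 302, 264 and 368 counts in the wild-type libraries and 653 and 979 in those of KI. The log2 fold change was then 1.26 (SE 0.21). Because the Gm6225 feature changed in the opposite direction, taking its counts off had to raise this value, and nothing is read from the rise. Any Gm6225 counts outside the shared bases were taken off too, although they were not part of the Crem count. A count over the whole gene does not separate ICER from the longer Crem transcripts.

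Nr4a3 stood at 60, 52.9 and 57.4 CPM in the wild-type libraries and at 65.2 and 126 CPM in KI replicates 1 and 3. KI replicate 3 stood apart, at 1.93 times the level of KI replicate 1. KI replicate 1 was 1.09 times the highest WT library, and its counting interval of 59.5 to 71.3 CPM overlapped that of WT replicate 1, 54.6 to 65.8 CPM. The means were 95.5 ± 42.9 CPM in KI (SD, n = 2) and 56.8 ± 3.59 CPM in WT (SD, n = 3), with a log2 fold change of 0.75 (SE 0.22), or 1.68-fold. Without KI replicate 3 the log2 fold change was 0.20 (SE 0.22), and without KI replicate 1 it was 1.15 (SE 0.19). KI replicate 3 is also the library with the high Ttr level and the lowest Slc17a7 level, a marker of cortical projection neurons (22 CPM, against 96.1 in KI replicate 1 and 73.6, 287 and 210 in WT). With the Slc17a7 level as a covariate the log2 fold change of Nr4a3 was 0.18 (SE 0.28). Slc17a7 itself had a log2 fold change of -1.69 (SE 0.54), so this fit cannot separate its level from the group. The part of these markers in the Nr4a3 level was not tested.

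Ier5 stood at 55.2, 57.7 and 76.8 CPM in the wild-type libraries and at 32.1 and 38.1 CPM in KI. These are levels of the whole feature read for it, with 410 of 8222 bases in Ier5 and 7812 in no annotated exon. Both KI libraries were well below the lowest WT library, with KI replicate 3, the higher of them, at a counting interval of 34 to 42.6 CPM against 50 to 60.7 CPM in WT replicate 1. The means were 35.1 ± 4.26 CPM in KI (SD, n = 2) and 63.2 ± 11.8 CPM in WT (SD, n = 3), a log2 fold change of -0.85 (SE 0.20), or 1.8-fold lower in KI. With the Slc17a7 level as a covariate the log2 fold change of Ier5 was -0.86 (SE 0.31), and that of Crem was 0.75 (SE 0.25). The same limit holds for these fits. The part of the markers in the Ier5 level was not tested.

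**Figure D2:**
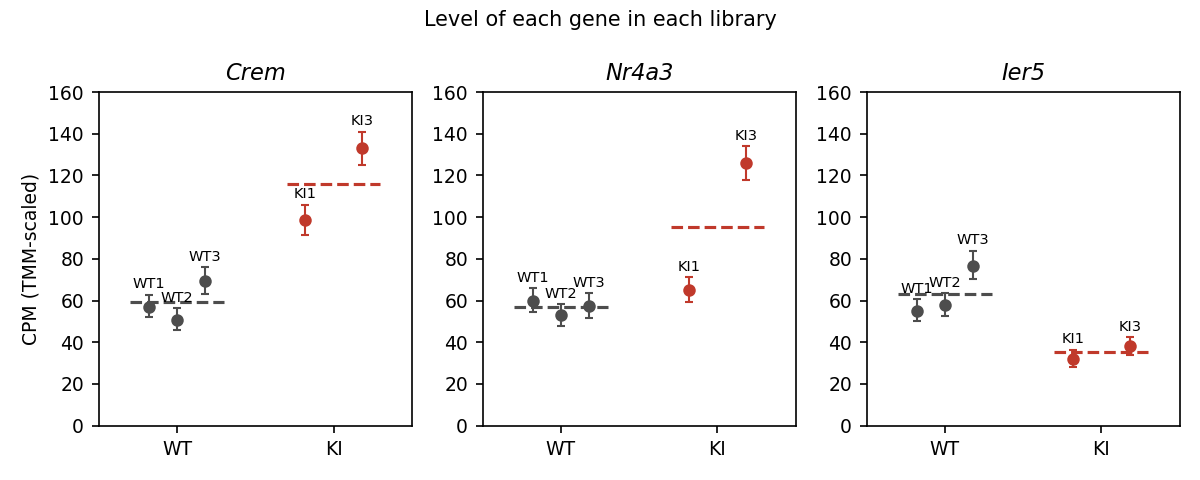
Level of Crem, Nr4a3 and Ier5 in CPM (TMM-scaled) in each WT and KI library; points are libraries, bars are 95% exact Poisson counting intervals and dashed lines are group means. Both KI libraries lie above the WT libraries for Crem and below them for Ier5, and for Nr4a3 KI replicate 1 (65.2 CPM) lies next to the WT libraries and KI replicate 3 (126 CPM) far above. The feature read for Ier5 has 410 of its 8222 bases in that gene.

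Per kilobase of exon, Crem and Nr4a3 can be set side by side, since both are read in full, but the Crem feature also holds the counts it shares with Gm6225. The Gm6225 counts equal 30.6, 30.7 and 18.8% of the Crem counts in the wild-type libraries, against 10.2 and 8.5% in those of KI, and how many of them come from Gm6225 is not known. In WT their levels were at 10 ± 1.59 CPM per kilobase for Crem and 9.48 ± 0.599 for Nr4a3 (SD, n = 3). With all Gm6225 counts and the shared bases left out, Crem stood at 8.07 ± 2.05 CPM per kilobase in WT (SD, n = 3), so the order of the genes in WT depends on these counts. In KI replicate 1 Crem stood at 16.7 and Nr4a3 at 10.9 CPM per kilobase, and in KI replicate 3 at 22.5 and 21.0; without the Gm6225 counts Crem stood at 16.3 and 22.4. No such level is given for Ier5, because the number of its reads that fall outside the 410 exon bases is not known.

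The directions of all 3 genes were kept under the scalings, filters and tests tried, and their sizes moved with single libraries. Leaving out 1 library at a time gave log2 fold changes of 0.74 to 1.16 for Crem, 0.20 to 1.15 for Nr4a3 and -0.97 to -0.68 for Ier5. For Crem and Nr4a3 both ends of that range came from leaving out a KI library. For Ier5 the value nearest 0 came without WT replicate 3.

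**Figure D3:**
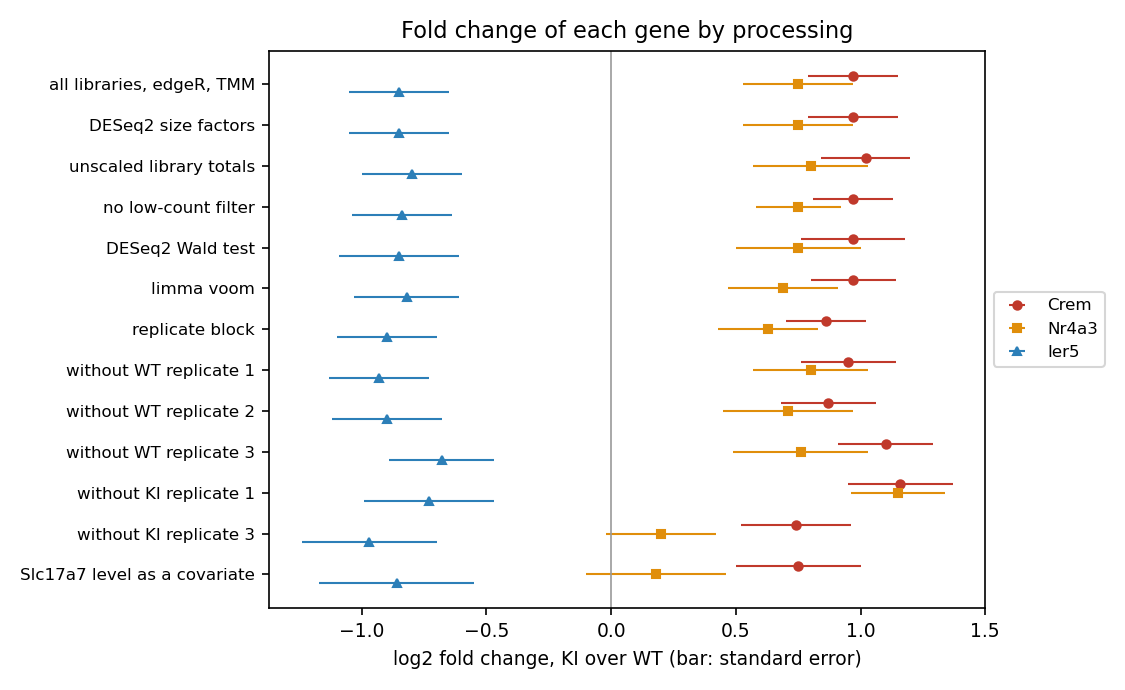
Log2 fold change of Crem, Nr4a3 and Ier5 in KI over WT (x axis; bars are standard errors) under each scaling, filter, test and left-out library (y axis). Nr4a3 moves to 0.20 without KI replicate 3 and to 0.18 with the Slc17a7 level as a covariate, while Crem stays at 0.74 or above and Ier5 at -0.68 or below. Ier5 is read by a feature with 410 of its 8222 bases in the gene.

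The other immediate-early transcription factors lay on both sides of 0, and no call was made among them. Of 28 further genes on that list, 13 had a feature and 12 were tested, and in the edgeR quasi-likelihood test 0 were called higher and 0 lower, against 0.0439% and 0.0585% of all features. The median log2 fold change was -0.12, against -0.002 over all features tested, with 4 genes above 0 and 8 below. At an unadjusted p under 0.05 there was 1 gene of the 12, against 6.4% of all features, and it was Egr3, a zinc finger factor, read over only 14 exon bases at 4.86, 19.5 and 12.1 CPM in the wild-type libraries and at 7.45 and 1.86 CPM in KI. Fos, a subunit of the AP-1 factor and the standard marker of recent activity, stood at 28.4, 22.6 and 20.8 CPM in the wild-type libraries and at 21.8 and 25.8 CPM in KI. Its log2 fold change was -0.01 (SE 0.25), and the groups overlapped throughout. Fos was read over 637 of its 2352 exon bases. Junb, another AP-1 subunit, had a log2 fold change of -0.16 (SE 0.16) and Fosb one of -0.09 (SE 0.30).

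Npas4 encodes a factor induced by calcium entry through neuronal activity. It stood at 39.3, 42.9 and 45.2 CPM in the wild-type libraries and at 31.4 and 33.9 CPM in KI (log2 fold change -0.38 with an SE of 0.19; edgeR adjusted p = 0.8329). Both KI libraries lay below all WT libraries, as for Ier5, but by less. Srf, the factor that binds the serum response element, had a log2 fold change of -0.34 (SE 0.16) and Klf10 one of -0.40 (SE 0.20). Per2, a clock gene, stood at 40.8 CPM in KI replicate 1 and 81.9 in KI replicate 3, with WT at 50.7 to 67.0 CPM in between.

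Among the effector genes induced by activity, 12 of 30 had a feature and were tested, and 9 had a log2 fold change above 0 and 3 below, with a median of 0.21. In the edgeR quasi-likelihood test 0 were called, and 2 had an unadjusted p under 0.05, where 6.4% of all features did. Vgf, a neurosecretory peptide precursor induced by neurotrophins and cAMP, stood at 326, 306 and 279 CPM in the wild-type libraries and at 427 and 456 CPM in KI. Both KI libraries lay above all WT libraries, with a log2 fold change of 0.54 (SE 0.11) and an edgeR adjusted p = 0.09053, over 198 exon bases. Arc, which encodes a synaptic protein, stood at 313, 483 and 397 CPM in the wild-type libraries and at 327 and 284 CPM in KI, so that WT replicate 1 lay between the KI libraries (log2 fold change -0.38 with an SE of 0.16; edgeR adjusted p = 0.6994). The DESeq2 Wald test called Vgf (adjusted p = 0.0008356), as did limma voom (adjusted p = 0.03395), and no other gene of the 5 lists besides the 3 was called by either. Over 12 alternatives the adjusted p of Vgf lay between 0.0008356 and 0.9998. Without WT replicate 1 the edgeR test called Vgf (adjusted p = 0.006144) and Arc (log2 fold change -0.52, adjusted p = 0.03905), and without each other library it called neither; the adjusted p of Arc lay between 0.03905 and 0.9999 over the same alternatives.

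The KI libraries were also set against the WT mean one at a time, because Nr4a3 differed between them. Among 22 other genes of the activity and CREB lists with a mean of at least 10 CPM, 14 were higher in KI replicate 3 than in KI replicate 1, against 51.3% of all tested features. In 6 of them KI replicate 3 was above the WT mean and KI replicate 1 below it, against 20.5%, and in 7 both were above it, against 27.8%. These shares are near the background, and nothing is read from them about the lists. The opposite pattern, KI replicate 1 above the WT mean and KI replicate 3 below it, was found in 2 genes, Creb3l2 (log2 ratios of 0.15 and -0.24) and Ier2 (0.16 and -0.03). Sik1, a CREB-induced kinase that inhibits CREB co-activators, stood at 26.4, 20.2 and 30.0 CPM in WT, 24.9 in KI replicate 1 and 47.7 in KI replicate 3. Its log2 ratio was -0.04 in KI replicate 1 and 0.90 in KI replicate 3, next to 0.20 and 1.15 for Nr4a3 and 0.74 and 1.17 for Crem. For Homer1, which encodes a synaptic scaffold, the ratios were -0.15 and 0.41. Klf4 stood at 36.4 CPM in KI replicate 3, with WT replicate 1 at 32.4 CPM, and Btg2 at 26 CPM, with WT replicate 1 at 21.3 CPM. The part of the Ttr and Slc17a7 differences between these libraries was not tested.

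**Figure D4:**
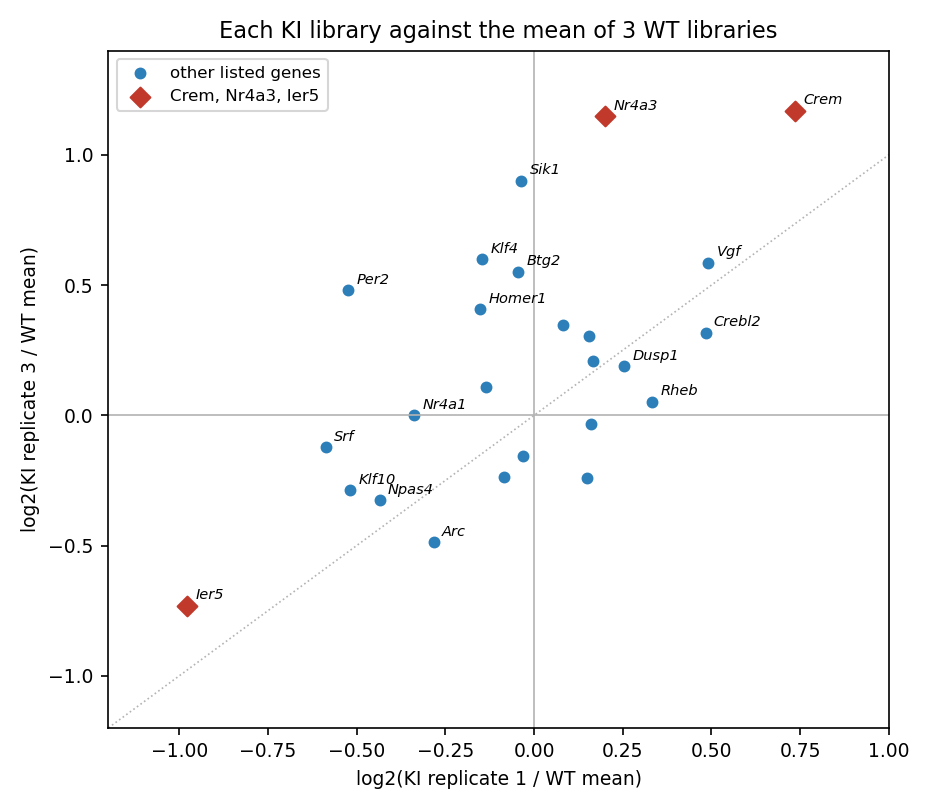
Log2 ratio to the mean of the 3 WT libraries in KI replicate 1 (x axis) and KI replicate 3 (y axis) for Crem, Nr4a3 and Ier5 (diamonds) and 22 other genes of the activity and CREB lists with a mean of at least 10 CPM (circles); the dotted line marks equal ratios. Crem (0.74 and 1.17) is far from 0 on both axes, Nr4a3 (0.20 and 1.15) and Sik1 (-0.04 and 0.90) lie near the y axis, and Ier5 (-0.98 and -0.73) lies at the lower left.

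Crem was the only member of the CREB family list read over all of its exons. Of the 16 other factors and co-activators 8 had a feature and 6 were tested, 2 above 0 and 4 below, with a median log2 fold change of -0.05. The edgeR quasi-likelihood test called 0 of them, 0 had an unadjusted p under 0.05 and in 0 did the groups separate. Over all features these shares were 6.4% and 22.4%, so counts of 0 among 6 genes say little. Atf1, the closest relative of Crem among the measured genes, stood at 4.99, 3.34 and 7.81 CPM in the wild-type libraries and at 2.85 and 7.43 CPM in KI (204 exon bases). Ep300, a histone acetyltransferase recruited by CREB, stood at 10.7 to 16.7 CPM in the wild-type libraries and at 16.0 and 16.5 CPM in KI. It was read over 129 of its 14273 exon bases. Crebl2, read over 291 of 6186 exon bases, had a log2 fold change of 0.40 (SE 0.27). Crebbp was read over 3 exon bases only and says little about that gene.

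Upstream of CREB, 15 of 33 kinases, phosphatases and their subunits were tested, with 6 above 0 and 9 below, a median of -0.05 and 0 calls in the edgeR quasi-likelihood test or at an unadjusted p under 0.05 (6.4% of all features). The regulatory subunits of protein kinase A that were measured had both KI libraries above all WT libraries. Prkar2a stood at 32.8, 25.9 and 21.4 CPM in the wild-type libraries and at 36.7 and 35.0 CPM in KI (log2 fold change 0.42 with an SE of 0.23; edgeR adjusted p = 0.8626). Prkar1a had a log2 fold change of 0.24 (SE 0.12). In this list 3 genes were separated upward and 2 downward, where 11.3% and 11.1% of all features were.

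The relatives and partners of Nr4a3 and Ier5 lay close to 0. Of 18 genes 9 were tested, with log2 fold changes between -0.16 and 0.15 and a median of -0.04. In the edgeR quasi-likelihood test 0 were called, 0 had an unadjusted p under 0.05, and the groups overlapped in all 9, where 6.4% of all features had such a p and 22.4% did not overlap. Nr4a1, the paralog with 4 CRE core matches like Nr4a3, stood at 11.7, 14.3 and 12.7 CPM in the wild-type libraries and at 10.2 and 12.9 CPM in KI (log2 fold change -0.16, SE 0.32), read over 68 exon bases. Ier2, a relative of Ier5, stood at 25.1, 25.5 and 13 CPM in the wild-type libraries and at 23.7 and 20.7 CPM in KI, over a feature shared with Gm26664. Hsf1, the heat shock factor bound by IER5, had a log2 fold change of 0.15 (SE 0.29). The phosphatase 2A genes Ppp2r2a, Ppp2r2b, Ppp2r2c, Ppp2r2d, Ppp2ca and Ppp2r1a lay between -0.15 and 0.10.

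**Figure D5:**
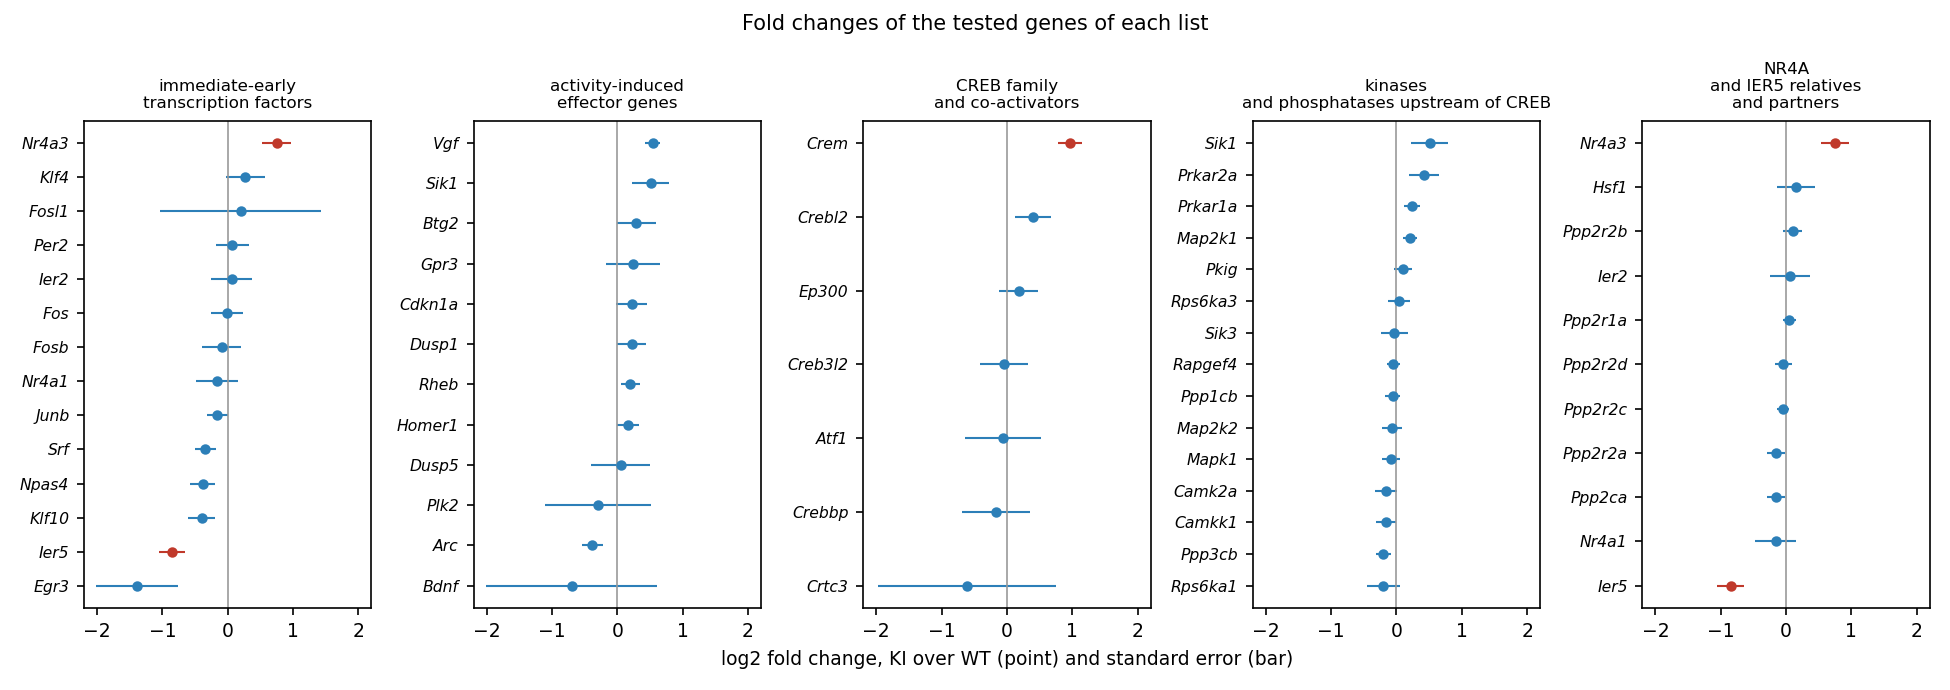
Log2 fold change in KI over WT (points) with its standard error (bars) for each tested gene of the 5 lists, 1 panel per list, with Crem, Nr4a3 and Ier5 in red. Crem has the highest value of its list and Nr4a3 and Ier5 the highest and lowest of the NR4A and IER5 list; the widest bars belong to genes read over few bases or few counts.

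Over the 5 lists together, 51 genes besides the 3 were tested. Of these 23 were above 0 (49.7% of all tested features were) and 28 below, with a median log2 fold change of -0.04. Both KI libraries were above all WT libraries in 5 and below them in 4, against 11.3% and 11.1% of all tested features. With only genes read over at least 100 exon bases, a limit chosen after the data were seen, 47 genes had a median of -0.03. Genes with and without a CRE core were also set side by side. Some genes have several RefSeq windows, and a match in any of them counted for the gene. Of the 36 tested genes with a RefSeq window, the 28 with a core match had a median log2 fold change of -0.04 and the 8 without one a median of -0.05. The full palindrome was found for 6 of them (Dusp1, Btg2, Plk2, Prkar1a, Ppp2ca and Ppp2r2d), with a median of 0.09 and a range from -0.30 to 0.29.

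Genes elsewhere with the most similar profile over the 5 libraries were found by the root mean square difference of log2 CPM, each centred on its own mean, among 5378 features over protein-coding genes with a mean of at least 10 CPM. For Crem these were Npr3, a natriuretic peptide receptor, at a difference of 0.081, Fam234b at 0.094 (over 7 exon bases) and Peli1, a ubiquitin ligase, at 0.134. Npr3 stood at 10.8, 8.69 and 12.7 CPM in the wild-type libraries and at 17.5 and 21.4 CPM in KI. For Nr4a3 the nearest were Abca14 at 0.118, Hcfc1 at 0.136 and Zfp263 at 0.150, the first pair read over 46 and 67 exon bases. For Ier5 they were Zfp277 at 0.095, Pak4, a kinase, at 0.106 and Sort1, the sorting receptor sortilin, at 0.116. Sort1 stood at 186, 200 and 233 CPM in the wild-type libraries and at 125 and 124 CPM in KI. For scale, the members' own root mean square deviation from their mean was 0.509 for Crem, 0.449 for Nr4a3 and 0.446 for Ier5. With 5 libraries many features can share such a profile.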

How the data were processed

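The authors deposited unnormalised fragment counts per feature, which featureCounts 2.0.1 made from the GRCm39 annotation of Ensembl (release 103), per the file headers. The recorded options ignored strand and counted a pair for each feature it overlapped, so reads shared by overlapping or antisense genes are not separated. The library kit marks strand, per the labels' protocols. The aligner is not given in the sources used here. Because reads lie at GRCm38 positions, features were laid over GENCODE M21 exons with bedtools 2.31.1 by position, without converting coordinates. This named 16346 of 53700 features (a sole gene, or the sole protein-coding gene), and each listed gene was read by its feature with the largest overlap.

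After filterByExpr and TMM scaling, all remaining features entered the edgeR 4.0.16 quasi-likelihood test (R 4.3.3, Benjamini-Hochberg over all tested features, threshold 0.05). Standard errors (SE) of the edgeR fits were derived as the absolute log2 fold change divided by the square root of the F statistic. Those of DESeq2 and limma voom came from their own fits. The common biological coefficient of variation was 29.8%. On simulated counts for KI against WT over 13665 features, 36% of 50 features changed 1.5-fold and 70% of 50 changed 2-fold were called. Changes were simulated only in features with a mean of at least 10 CPM, so these shares do not cover lower features. The same simulation changed 50 features 3-fold and 50 features 5-fold, and 47 and 48 of them were called. With more calls than the 14 in the data, the adjusted threshold was easier to reach there. The shares may therefore be too high for the data. Of 13465 unchanged features 0.0743% were called. A count of 0 allows up to 0.379 to 0.455 CPM (3 counts, counting error only). Log2 CPM used a prior count of 2. Alternatives used DESeq2 1.42.0 and limma 3.58.1.

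The members and the gene lists were chosen with earlier results of these data known. Named genes were Crem, Nr4a3 and Ier5, the tested CREB, NR4A and IER5 list genes, a set of classical activity genes, protein kinase A subunits, the list members with the smallest p, 3 nearest profiles per member and the leading markers. Klf4, Klf10 and Per2 were singled out after their values were seen, as were Creb3l2, Slc17a7 as a covariate and the removal of Gm6225 counts.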

Additional observations from a re-analysis of the deposited data

How the results depend on the processing

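Against 14 features called over all features, no low-count filter gave 183, the DESeq2 Wald test 123, limma voom 52 and the replicate block 154, and leaving out 1 library gave 2 to 161, with the most without WT replicate 1. The Slc17a7 covariate, added after the data were seen, gave 2. DESeq2 size factors gave 15 and unscaled totals 16 (9 higher and 7 lower, against 6 and 8). Of the 51 listed genes besides the 3, 0 were called, against 1 (Vgf) without a filter, 1 in the DESeq2 Wald test, 1 in limma voom, 1 in the replicate block, and 0 to 2 when 1 library was left out (Vgf and Arc without WT replicate 1).

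With the replicate block the log2 fold changes were 0.86 for Crem, 0.63 for Nr4a3 and -0.90 for Ier5. The labels say nothing of what a number shares, so the numbers were not taken as pairs. Deviations from the group means correlated at 0.111 for replicate 1 and 0.0697 for replicate 3. The deviations of the KI libraries mirror each other (correlation -1), so these values cannot decide on pairing. Among WT libraries, KI replicate 1 had its lowest chi-square for each degree of freedom with WT replicate 1 (12.5, against 18.7 and 15.8). KI replicate 3 had its lowest with WT replicate 3 (13.6, against 20.6 and 17). No KI library carries the number 2. Nr4a3 was 0.18 with the Slc17a7 covariate and 0.20 to 1.15 with 1 library left out. With a KI library left out, the lone KI library takes its spread from WT. Crem was 1.26 after removing Gm6225 counts and -0.53 in the Gm6225 feature alone. No second feature covers Nr4a3 or Ier5. In the other alternatives the 3 genes moved by less than 1 SD between replicates (0.25, 0.39 and 0.23 on the log2 scale for Crem, Nr4a3 and Ier5). Causes were not tested. Without a filter 24598 features entered the test, against 13665 with it. No group has 4 or more libraries, so single libraries were not screened as outliers.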
